A study of Mus musculus with 3 samples.

Results

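The genes described here encode the subunits of the oxidative phosphorylation machinery of mitochondria, taken complex by complex. Members were all genes whose symbols start with Nduf, Uqcr, Cox4 to Cox8 or Atp5, the genes Sdha to Sdhd, and the protein-coding genes of the mitochondrial genome, whose symbols start with mt-. The rule found 106 of the 31053 genes in the files. These are 105 symbols, since Atp5o is listed under more than 1 identifier. The symbols starting with Nduf also bring in 8 Ndufaf genes, which encode assembly factors of complex I and not subunits, and these were kept apart. Ndufa4 and its paralog Ndufa4l2 were kept apart as well.

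The cells came from the ear epidermis of C57BL/6N mice, an inbred strain, at 9 weeks of age, without treatment, and were profiled as 3 replicate libraries of 1 group. Per the labels' protocols, the epidermis was lifted off with dispase, cells were freed from its basal side with trypsin and EDTA, and the suspension was frozen before use. Libraries were made with a 10x Genomics V(D)J kit that counts the 5′ ends of transcripts as unique molecular identifiers (UMIs), and short cDNA fragments were kept. Nothing in the labels says whether the replicates are separate animals, so the tests may measure only the spread between libraries, and sex is not given.

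Comparisons were made between 3 classes of keratinocyte within each library. Basal cells, which rest on the basement membrane and include the dividing cells, had at least 0.5% of their UMIs in Krt5 and Krt14 and under 0.5% in Krt1 and Krt10. Spinous cells, of the layers above, had at least 0.5% in Krt1 and Krt10 and under 1% in loricrin (Lor). Granular cells, the last living layer before cornification, had at least 1% in Lor. Replicates 1 to 3 gave 469, 947 and 971 basal cells, 391, 986 and 920 spinous cells, and 57, 163 and 205 granular cells, and 8 cells met both the basal and the granular rule. A cell was kept with 500 genes or more and an mt- share of UMIs up to 10%, which left 5340 of the 6078 barcodes. All barcodes together held 68583868 UMIs. Median depth ran from 7315 to 11834 UMIs per basal cell, 13349 to 20489 per spinous cell and 18540 to 28482 per granular cell.

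The labels of the classes were checked against markers that the rule did not use. Levels are given as CPM, the UMIs of a gene in every 1000000 UMIs of the class in a library. The 7 basal markers summed to between 3738 and 4204 CPM in basal cells and to between 83.1 and 103 in granular cells. The 8 granular markers summed to at most 53.4 in basal cells, 622 in spinous cells and at least 41797 in granular cells. The 7 spinous markers summed to 748 to 1553 CPM in basal cells, 18109 to 19625 in spinous cells and 38669 to 42196 in granular cells. Most of that sum came from Krtdap and Sbsn, which were each higher in every granular than in every spinous profile, as was Dsc1. Krt77 was higher in granular than in spinous cells of each library. Only Dsg1a, Notch3 and Skint9 were each higher in every spinous than in every granular profile. Langerhans cell markers summed to 119 CPM in granular cells of replicate 2, against 4.75 to 8.38 in the other granular profiles. The 7 markers of the hair follicle and sebaceous unit summed to 168 to 304 CPM in basal cells and 78.4 to 96.2 in granular cells. The 5 T cell markers summed to 265 to 327 in basal cells, with 261 to 327 of it in Thy1, and to 1.19 to 6.31 in granular cells. An alternative left out cells with 2 or more UMIs of other cell types' markers. These included the Langerhans markers, the T cell markers without Thy1, and Cd34, Lgr5 and Krt79. All 49 values of single named members kept their call and direction in it. The part of Thy1 and of the remaining follicle and sebaceous markers in the results was not tested. The 4 skeletal muscle markers summed to at most 0.739 in any profile. Between 3 and 9 cell barcodes were shared by any pair of libraries.

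Oxidative phosphorylation couples electron transport to the making of ATP. Complex I takes electrons from NADH and complex II from succinate, complex III passes them to cytochrome c, complex IV (cytochrome c oxidase) hands them to oxygen, and complex V (ATP synthase) uses the resulting proton gradient. All subunits of complex II are encoded in the nucleus, whereas the other complexes also hold subunits encoded in mitochondrial DNA. In epidermis, keratinocytes lose their mitochondria and nuclei as they turn into the cornified layer.

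Of the 106 members, 98 had enough UMIs to be tested. The other 8 were nearly all tissue-restricted isoforms of complex IV. Cox7b2, Cox8b, Cox8c and the Atp5o identifier listed first had 0 UMIs in the 9 profiles, Cox4i2 had 1, Cox7a1 had 3 and Cox6a2 had 6. Cox6b2, the testis isoform of subunit 6b, had 9, 13 and 11 UMIs in basal cells of replicates 1 to 3, 4 in all spinous cells and 0 in granular cells. The filter on low counts therefore left out members that were low in every class, together with this 1 gene of low level in basal cells.

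A UMI counts a molecule, so the CPM of different genes are not divided by length. Tests used edgeR's quasi-likelihood model on the UMIs summed per library and class, with library as a block, TMM scaling and Benjamini-Hochberg adjustment over 11314 genes. TMM scaling and scaling to plain totals did not give the same differences. A gene with no difference in CPM stood at a TMM log2 difference of 0.33 between spinous and basal cells, 0.78 between granular and spinous cells and 1.11 between granular and basal cells. Both scales are therefore given.

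On the TMM scale, 16 of the 98 members were higher and 41 lower in spinous than in basal cells. The background over all genes tested was 34.6% higher and 35.4% lower, and the members' shares were 16.3% and 41.8%. Between granular and spinous cells, 17 members were higher and 52 lower (17.3% and 53.1%), with 31.5% and 38.2% of all genes. Between granular and basal cells, 22 were higher and 57 lower (22.4% and 58.2%), with 37.3% and 45.0% of all genes. In all 3 comparisons a smaller share of members than of all genes was higher, and a larger share was lower.

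By plain totals, nearly all members were lower in the more differentiated class. The counts were 6 higher and 81 lower for spinous against basal cells (all genes 23.0% and 51.6%), 2 and 90 for granular against spinous cells (18.0% and 63.2%), and 2 and 93 for granular against basal cells (22.4% and 67.2%). The median member differed by -1.54 on the log2 scale between granular and basal cells by plain totals, and by -0.42 on the TMM scale. The medians of all genes tested were -1.38 and -0.26. Of the 98 members, 57 were lower in granular than in basal cells on both scales and 2, Ndufa4 and Atp5d, were higher on both. Another 17 were higher by TMM and lower by plain totals, and 3 (Atp5k, Cox7a2 and Ndufa6) were higher by TMM with no call by plain totals.

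Another reading is the mean number of UMIs per cell, which does not depend on scaling but rises with the depth of the class. In every library, granular cells held more UMIs than basal cells for 28 of the 98 members and fewer for 58. Over all genes tested these shares were 40.2% more and 46.2% fewer. Spinous cells held more than basal cells for 76 members and fewer for 7 (all genes 61.3% and 23.7%), so the fall in CPM between these classes was not a fall per cell. Between granular and spinous cells, 8 members were higher per cell in all libraries and 83 lower (all genes 25.7% and 55.9%).

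**Figure D1:**
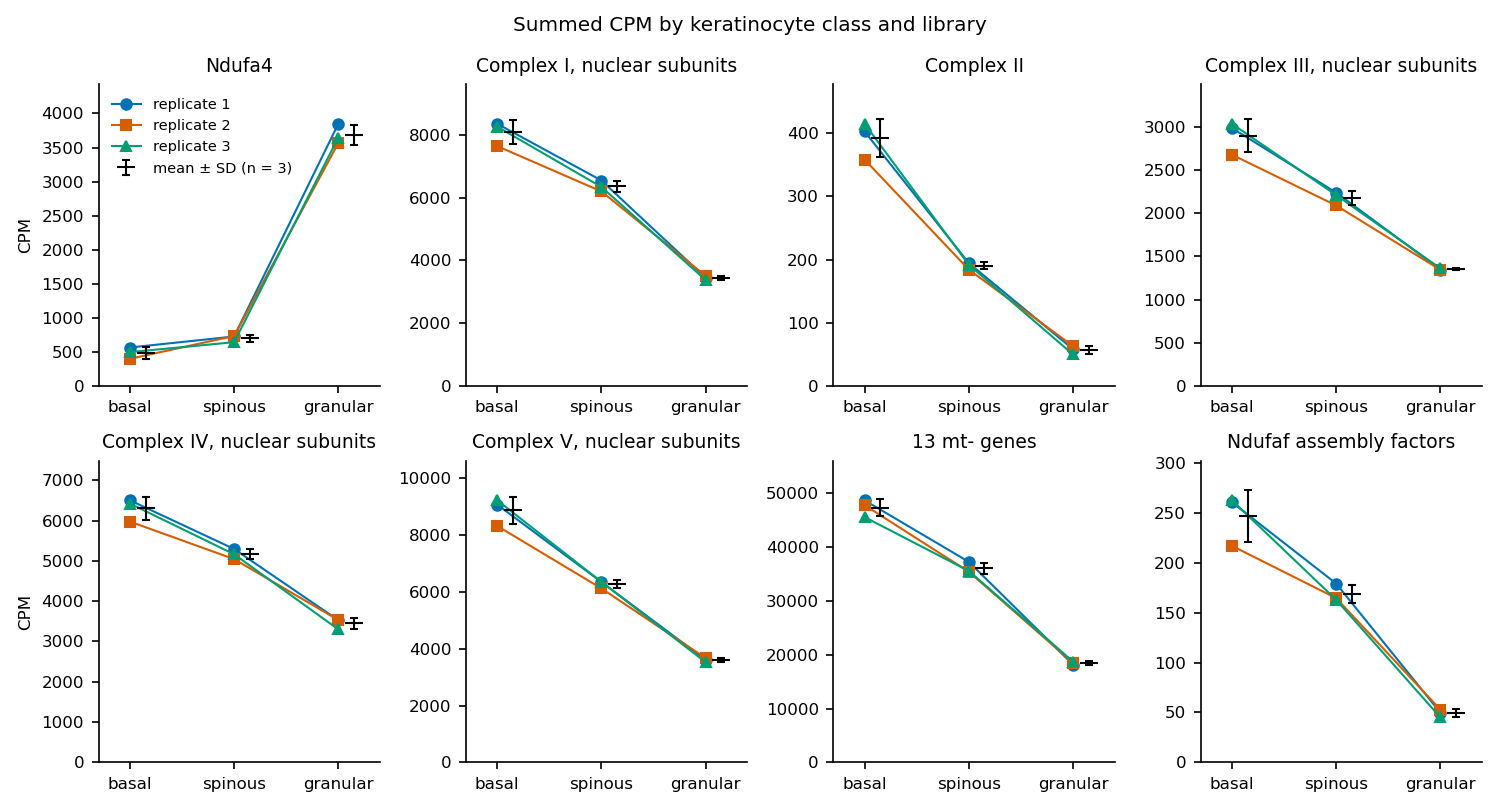
Summed CPM (y axes, each from 0) in basal, spinous and granular cells, for Ndufa4, for the nuclear subunits of each complex, for the 13 mt- genes and for the Ndufaf assembly factors. Lines join the classes of 1 library, and crosses give the mean ± SD over 3 libraries; Ndufa4 is higher in granular cells of every library and all other sums are lower.

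Ndufa4 stood apart from every other member. Its product was first assigned to complex I and is now known as a subunit of complex IV. The gene lies on the minus strand of chromosome 6 (11900292 to 11907497, mm10, GENCODE M21 annotation). Basal cells of replicates 1 to 3 held 564, 398 and 496 CPM, spinous cells 726, 733 and 642, and granular cells 3848, 3566 and 3646. The classes did not overlap, and every granular value was more than 4 times every spinous value. The TMM log2 difference was 0.87 ± 0.10 (SE, adjusted p = 1.46e-07) for spinous against basal cells and 3.17 ± 0.11 (adjusted p = 1.31e-16) for granular against spinous cells. Granular against basal cells gave 4.04 ± 0.11 (adjusted p = 1.93e-18). By plain totals the same differences were 0.54, 2.39 and 2.93, and the last is a 7.63-fold higher level. Mean UMIs per cell were 6.89, 2.97 and 4.42 in basal cells, 14.7, 9.97 and 9.92 in spinous cells, and 114, 62.4 and 72.2 in granular cells.

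Among nuclear-encoded members, Ndufa4 took 1.57 to 2.02% of UMIs in basal cells, 3.07 to 3.60% in spinous cells and 22.7 to 24.3% in granular cells. By level it ranked 14th, 24th and 20th of the nuclear members in basal cells of the 3 libraries, and 1st in granular cells of all 3. Its ratio to Cox4i1, a nuclear-encoded regulatory subunit of the same complex, moved from 0.399, 0.259 and 0.348 in basal cells to 16.4, 12.6 and 14.1 in granular cells. Against all other nuclear complex IV subunits together, the ratio of UMIs was 0.0666 to 0.0867 in basal cells and 1.01 to 1.11 in granular cells. The rise was large but not unusual in size among all genes, since 7.69% of the 11314 genes had a larger log2 difference between granular and basal cells.

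The difference was also present at equal depth, with cells thinned to 2000 UMIs. Cells below that depth were left out, which were 31, 61 and 56 basal, 7, 26 and 23 spinous and 1, 9 and 3 granular cells of replicates 1 to 3. A thinned granular cell held on average 8.00, 6.51 and 6.46 UMIs of Ndufa4 in replicates 1 to 3, against 1.08, 0.743 and 0.939 in a basal cell. At least 1 UMI was seen in 94.6%, 98.1% and 95.1% of granular cells and in 64.6%, 50.1% and 58.8% of basal cells. Unthinned, these shares were 98.2%, 97.5% and 97.6%, and 91.7%, 84.2% and 87.0%. Cox4i1 went the other way at the same depth. Its thinned mean was 2.82, 3.00 and 2.90 UMIs in basal cells and 0.429, 0.468 and 0.391 in granular cells, and the share of cells with a UMI was 92.1 to 92.9% and 30.2 to 37.0% (unthinned 95.7 to 96.7% and 82.5 to 90.2%).

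Within granular cells, Ndufa4 was higher in each bin of higher Lor share. Cells with 1 to 5% Lor held 2680.1, 2723 and 2479.6 CPM, those with 5 to 10% held 4086, 4131 and 4359, and those with 10% or more held 5141, 4951 and 5804. The values of the bins did not overlap. Cells with 10% or more numbered only 16, 25 and 27. The bins of 1 to 5% and 5 to 10% held as few as 18 and 23 cells in a library. The sums of complex II and of the assembly factors were lower in the same direction, as the plot along the differentiation order shows.

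**Figure D2:**
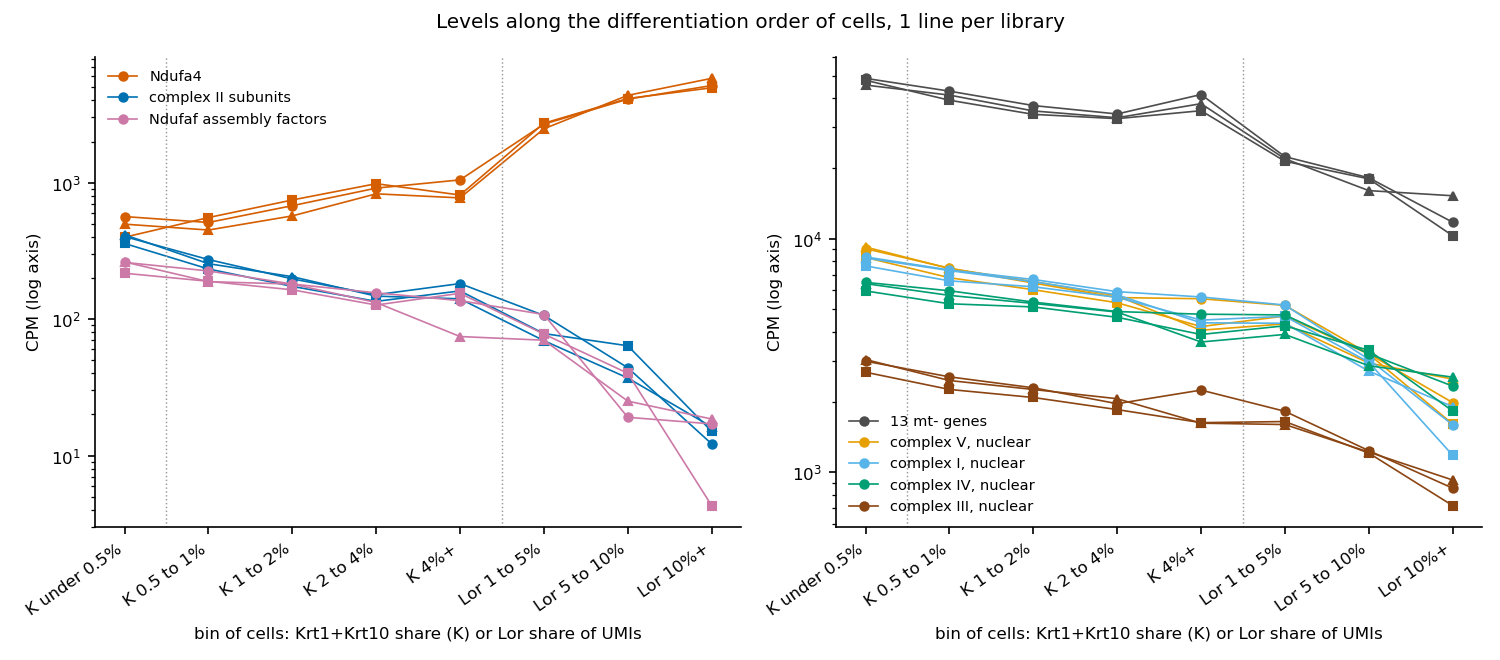
CPM (log axis) in bins of cells ordered by the share of Krt1 and Krt10 (K) and then by the share of Lor; 1 line per library, with dotted lines between basal, spinous and granular bins. Ndufa4 is at most 564 in the first bin and at least 4951 in the last, while all other sums are lower in the last bin than in the first. The median of Ndufa4 over libraries is 911 at K 2 to 4% and 811 at K 4%+, a bin of 9 to 26 cells.

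The close relatives of Ndufa4 did not share its level. Ndufa4l2, a paralog known as a hypoxia-responsive gene, was low in all classes. Basal cells held 41.4, 78.4 and 48.9 CPM, spinous cells 11.1, 39.9 and 41.1, and granular cells 2.37, 12.96 and 3.94. In spinous cells with 4% or more Krt1 and Krt10 it ran from 0 to 534 CPM over the libraries, with a median of 130. That bin held only 9 to 26 cells per library. Granular values lay below all basal values, and the TMM log2 difference was -2.07 ± 0.31 (SE, adjusted p = 3.78e-06). The 3 granular values rest on 4, 37 and 16 UMIs. The other paralog, AA467197 (Nmes1), had 3 UMIs in all, each in spinous cells.

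Complex I is the largest complex, with core subunits that carry the flavin, iron-sulfur clusters and quinone site, and supernumerary subunits around them. Its nuclear subunits summed to 8356, 7644 and 8265 CPM in basal cells, 6549, 6200.0 and 6342 in spinous cells, and 3446, 3508 and 3376 in granular cells. Per cell, granular cells held 0.907 to 1.08 times the basal number. Of the 36 nuclear subunits tested, 7 were higher and 21 lower in granular than in basal cells on the TMM scale (all genes 37.3% and 45.0%). By plain totals the counts were 0 and 35 (all genes 22.4% and 67.2%). Spinous against basal cells gave 6 higher and 17 lower by TMM (all genes 34.6% and 35.4%).

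The subunits of complex I were also counted by their place in it, with no test of the difference. Of the 7 nuclear core subunits, 6 were lower in granular than in basal cells and 0 higher on the TMM scale, and all 7 were lower by plain totals. Of the 29 supernumerary subunits, 15 were lower and 7 higher by TMM, and 28 lower and 0 higher by plain totals. Over all genes tested, 45.0% were lower and 37.3% higher by TMM, and 67.2% and 22.4% by plain totals. Ndufa6, a supernumerary subunit of the LYR family, held 594, 659 and 598 CPM in basal cells and 550.4, 608 and 601 in granular cells. Its granular and basal values overlapped, so its TMM log2 difference of 1.04 ± 0.09 (SE, adjusted p = 3.69e-10) stood against -0.07 by plain totals. Ndufb9, next in level in basal cells, held 478, 443 and 462 there and 183, 180.0 and 207 in granular cells, and was lower by plain totals only. Ndufc1 and Ndufv3, small supernumerary subunits, were among the largest rises between basal and spinous cells. Ndufc1 went from 191, 154 and 201 to 226, 218 and 248 CPM, a TMM log2 difference of 0.68 ± 0.09 (SE, adjusted p = 6.14e-07) and 0.35 by plain totals. Ndufv3 went from 249, 214 and 261 to 296, 260.5 and 290.1, with 0.56 ± 0.08 (SE, adjusted p = 3.03e-06) and 0.23.

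The assembly factors of complex I, which help to build the complex and do not stay in it, were low, and their sum fell further than that of its subunits. The sum was 260.4, 217 and 262 CPM in basal cells, 179, 164 and 163 in spinous cells, and 49.9, 52.9 and 45.1 in granular cells. Per cell, granular cells held 0.382 to 0.573 times the basal number. Between granular and basal cells, 7 of the 8 were lower on the TMM scale, and Ndufaf8, with 65.8, 50.8 and 64.4 CPM in basal cells and 25.5, 26.3 and 25.1 in granular cells, was not called. By plain totals all 8 were lower. Over all genes tested, 45.0% were lower by TMM and 67.2% by plain totals. Between granular and spinous cells all 8 were lower on both scales (all genes 38.2% by TMM and 63.2% by plain totals).

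The largest of these falls rest on few UMIs in granular cells. Ndufaf2, a chaperone of the complex, held 57.1, 46.6 and 66.8 CPM in basal cells and 2.97, 5.95 and 2.96 in granular cells, from 5, 17 and 12 UMIs. Its TMM log2 difference was -2.71 ± 0.23 (SE, adjusted p = 4.67e-10), and -2.06 against spinous cells. Ndufaf6 had 8.20, 9.20 and 12.02 in basal cells and 1.19, 1.05 and 0 in granular cells, from 2, 3 and 0 UMIs, with a fitted difference of -2.95 ± 0.55 (SE, adjusted p = 4.75e-05). Ndufaf5, which hydroxylates a core subunit, went from 16.8, 13.9 and 14.2 in basal cells through 7.94, 6.63 and 5.91 in spinous cells to 0.594, 1.40 and 1.23 in granular cells. Its TMM log2 differences were -0.81 ± 0.15 (SE, adjusted p = 7.69e-05) for spinous against basal cells and -2.51 ± 0.35 (SE, adjusted p = 1.23e-06) for granular against basal cells. In thinned cells the call between spinous and basal cells was lost (adjusted p = 0.136), as was that between granular and spinous cells (adjusted p = 0.159).

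Complex II, succinate dehydrogenase, also acts in the tricarboxylic acid cycle and was the complex with the steepest fall. Its 4 subunits summed to 403, 358 and 415 CPM in basal cells, 194, 184 and 192 in spinous cells, and 58.2, 63.1 and 49.8 in granular cells. The sum was 5.68 to 8.33 times lower in granular than in basal cells of the same library, against 1.69 to 2.61 times for the nuclear subunits of the other complexes. Per cell, granular cells held 0.267 to 0.413 times the basal number. All 4 subunits were lower in all 3 comparisons on both scales. Over all genes tested, 35.4% were lower by TMM between spinous and basal cells, 38.2% between granular and spinous cells and 45.0% between granular and basal cells. By plain totals these shares were 51.6%, 63.2% and 67.2%.

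Sdhd, a membrane anchor, had the largest fall of all members tested between granular and basal cells. It held 74.2, 61.7 and 76.6 CPM in basal cells, 26.4, 22.4 and 25.5 in spinous cells, and 5.94, 2.10 and 2.22 in granular cells, from 10, 6 and 9 UMIs. The classes did not overlap. Its TMM log2 difference was -1.19 ± 0.09 (SE, adjusted p = 3.59e-10) between spinous and basal cells, -2.27 ± 0.23 (adjusted p = 2.08e-08) between granular and spinous cells and -3.46 ± 0.21 (adjusted p = 1.41e-12) between granular and basal cells. Sdhb, the iron-sulfur subunit, went from 184, 156 and 183 in basal cells to 16.0, 19.6 and 17.2 in granular cells, with -2.16 ± 0.12 (SE, adjusted p = 2.64e-13). Sdhc, the other anchor, and Sdha, the flavoprotein, fell less, by 1.14 and 0.72 on the TMM log2 scale (adjusted p = 7.94e-08 and 2.82e-05). Sdhc held 77.7, 74.3 and 84.0 CPM in basal cells and 19.0, 18.9 and 13.3 in granular cells. Sdha held 67.2, 65.8 and 70.7 in basal cells and 17.2, 22.4 and 17.0 in granular cells.

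**Figure D3:**
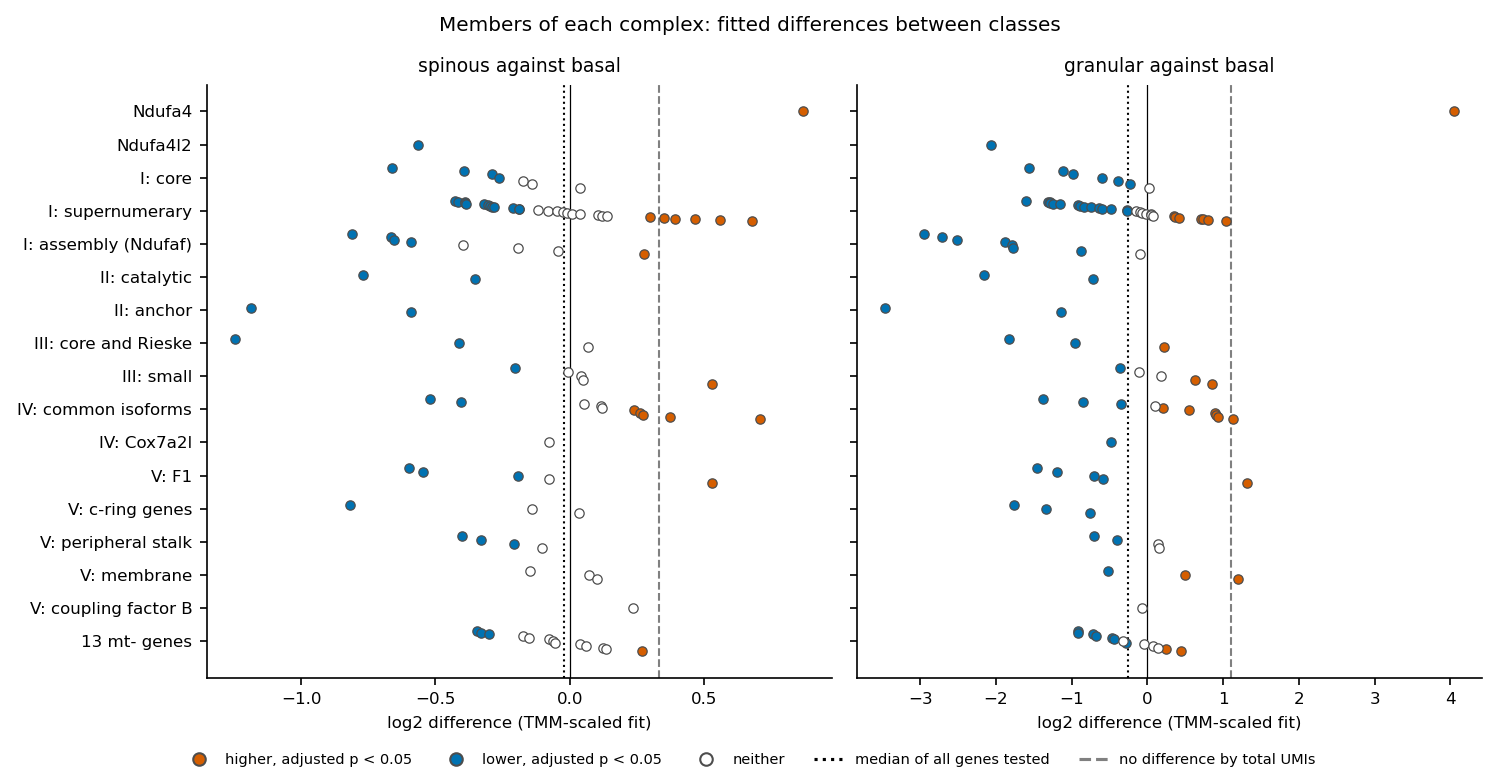
Fitted log2 differences on the TMM scale (x axes) of each member tested, grouped by complex and role, for spinous against basal and granular against basal cells; orange and blue points passed an adjusted p of 0.05. The dotted line marks the median of all genes tested and the dashed line the value at which CPM do not differ, beyond which Ndufa4 lies in both panels.

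Complex III passes electrons from ubiquinol to cytochrome c. Its nuclear subunits with Uqcr symbols summed to 2986, 2678 and 3036 CPM in basal cells, 2239, 2090.0 and 2210.1 in spinous cells, and 1348, 1345 and 1362 in granular cells. Cyc1, the gene of its cytochrome c1 subunit, falls outside the symbol rule and was counted among the carriers and partners below. Of the 8 tested, 3 were higher and 3 lower in granular than in basal cells on the TMM scale, which is 37.5% each. These shares were near the 37.3% higher and 45.0% lower over all genes. By plain totals all 8 of these subunits were lower (all genes 67.2%). The 2 core proteins, which face the matrix, were lower on both scales. Uqcrc1 had the largest fall of all members between basal and spinous cells, from 417, 394 and 451 to 150.1, 130.0 and 144 CPM (TMM log2 difference -1.25 ± 0.08 SE, adjusted p = 1.06e-11). Granular cells held 60.0, 57.4 and 48.8 of it. Uqcrc2 went from 152, 153 and 154 in basal cells to 37.4, 40.6 and 32.0 in granular cells, with -0.96 ± 0.10 (SE, adjusted p = 1.41e-08). The small subunits Uqcr11 and Uqcrh had the highest levels of the complex in basal cells. Uqcr11 went from 582, 448 and 609.8 in basal cells to 188, 184 and 210.4 in granular cells and was lower on both scales. Uqcrh, the hinge protein, went from 493, 532 and 451 to 231, 284 and 255 and was lower by plain totals only.

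Complex IV was the complex whose nuclear subunits fell least in summed CPM. They summed to 6501, 5973 and 6419.9 CPM in basal cells, 5293, 5043 and 5163 in spinous cells, and 3527, 3532 and 3299 in granular cells, without Ndufa4. Per cell, granular cells held 1.14 to 1.39 times the basal number. Of the 11 tested, 6 were higher and 4 lower on the TMM scale between granular and basal cells (all genes 37.3% and 45.0%). The sums and counts of this complex include Cox7a2l, a factor of respiratory supercomplexes. By plain totals the counts were 0 and 10 (all genes 22.4% and 67.2%). Between spinous and basal cells, 5 were higher and 2 lower by TMM (all genes 34.6% and 35.4%).

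Its subunits did not move together. Cox4i1, the general isoform of subunit 4, went from 1413, 1534 and 1424 CPM in basal cells through 797, 825 and 797 to 235, 282 and 259 in granular cells. Its TMM log2 difference between granular and basal cells was -1.38 ± 0.09 (SE, adjusted p = 5.44e-12). Cox7a2, the general isoform of subunit 7a, held 516, 457 and 525 in basal cells and 514, 510.4 and 487 in granular cells. These values overlapped, with 1.13 ± 0.08 (SE, adjusted p = 4.67e-11) by TMM and 0.01 by plain totals. Cox8a held 857, 794 and 849 in basal cells and 743, 777 and 661 in granular cells, 0.91 by TMM (adjusted p = 1.25e-09) and -0.20 by plain totals. Cox6b1 held 549, 476 and 530.3 and then 489, 433 and 419.7, and likewise gave 0.90 by TMM (adjusted p = 1.28e-09) and -0.21 by plain totals.

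Other isoforms filled in the picture. Cox7c, a small subunit, rose between basal and spinous cells, from 621, 491 and 602 to 774, 700.1 and 742 CPM, with 0.71 ± 0.08 (SE, adjusted p = 1.02e-07) by TMM and 0.38 by plain totals. Cox7a2l, a relative of Cox7a2 known for its place in respiratory supercomplexes, went from 275, 318 and 239 in basal cells to 84.3, 103 and 86.0 in granular cells, with -0.48 ± 0.09 (SE, adjusted p = 9.01e-05). Cox6a1 had 387, 346 and 407 in basal cells and 172, 210.2 and 179 in granular cells, a TMM log2 difference of 0.10 that was not called (adjusted p = 0.342) and -1.02 by plain totals. Cox7b held 325, 256 and 302 in basal cells and 109, 97.4 and 109.9 in granular cells.

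Complex V makes ATP with a catalytic F1 head, a rotating ring of c subunits, a peripheral stalk and membrane subunits. Its nuclear subunits summed to 9059.6, 8310.2 and 9213 CPM in basal cells, 6341, 6116 and 6345 in spinous cells, and 3605, 3667 and 3524 in granular cells. Of the 16 tested, 3 were higher and 10 lower in granular than in basal cells on the TMM scale (all genes 37.3% and 45.0%). The sums and counts of this complex include Atp5s, known as coupling factor B. By plain totals the counts were 1 and 14 (all genes 22.4% and 67.2%). Of the 5 F1 subunits 4 were lower by TMM. The exception was Atp5d, the delta subunit of the F1 stem, with 501, 514 and 541 in basal cells, 568, 626 and 592 in spinous cells, and 595, 635 and 574 in granular cells. Its granular values lay above all basal values, with 1.32 ± 0.08 (SE, adjusted p = 1.91e-12) by TMM and 0.21 by plain totals. Atp5d overlaps Cbarp on the opposite strand in the annotation, and the sources used here do not say how strand was used in counting.

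Atp5k, the small membrane subunit e, was the member with the largest rise after Ndufa4 between spinous and granular cells. It held 401, 351 and 445 CPM in basal cells, 314, 317 and 367 in spinous cells, and 405, 409 and 452 in granular cells. The granular values lay above all spinous values and overlapped the basal ones. The TMM log2 difference was 1.13 ± 0.08 (SE, adjusted p = 7.96e-11) against spinous cells, and 0.34 by plain totals. Atp5l, the membrane subunit g, was the highest member of the complex after Atp5g2 in basal cells, with 963, 948 and 948. It held 656, 618 and 599 in granular cells and was higher by TMM and lower by plain totals.

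Atp5g1, Atp5g2 and Atp5g3 encode the same mature c subunit behind different import sequences, and their shares shifted. Atp5g3 went from 964, 746 and 947 CPM in basal cells to 419, 372 and 403 in spinous cells and 129, 118 and 113 in granular cells. Its TMM log2 difference was -0.82 ± 0.08 (SE, adjusted p = 1.06e-08) between spinous and basal cells and -1.76 ± 0.09 (SE, adjusted p = 1.03e-13) between granular and basal cells. Atp5g1 held 376, 296 and 389.6 in basal cells and 65.9, 66.9 and 60.4 in granular cells, and Atp5g2 1165, 1123 and 1178 and then 302, 318 and 322. Of the UMIs of the 3 genes, Atp5g3 took 38.5, 34.5 and 37.7% in basal cells and 25.9, 23.5 and 22.9% in granular cells. Atp5g2 took 46.5, 51.9 and 46.9% and then 60.8, 63.2 and 65.0%. These shares do not depend on scaling, and basal and granular values did not overlap.

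The 13 genes of mitochondrial DNA are read from long transcripts that are cut into single messages. They summed to 48650.3, 47753 and 45537 CPM in basal cells, 37228, 35391 and 35541 in spinous cells, and 18153, 18485 and 18723 in granular cells. The limit of 10% on the mt- share bounds this measure itself. It removed 4.15 to 6.76% of basal cells, 1.69 to 3.93% of spinous cells and 1.72 to 2.84% of granular cells. Per cell, granular cells held 0.902 to 0.913 times the basal number. On the TMM scale, 2 of the 13 were higher and 7 lower in granular than in basal cells (all genes 37.3% and 45.0%). By plain totals all 13 were lower (all genes 67.2%). These TMM counts were 4 and 6 in cells up to 5% mt- UMIs, 1 and 7 without replicate 3, without cycling cells or with no low-count filter, and 0 and 9 in cells thinned to 2000 UMIs.

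Among the mt- genes, mt-Atp8 was the highest in basal cells, with 12349, 11595 and 12011 CPM, and held 2864, 2982 and 2933 in granular cells. It fell by 0.92 on the TMM log2 scale (adjusted p = 2.71e-08), as did mt-Nd4l by 0.91 (adjusted p = 5.36e-09). mt-Nd4l held 3454, 3057 and 3290.1 in basal cells and 813, 809 and 784 in granular cells. The 7 called lower also include mt-Nd1, mt-Nd2, mt-Nd3, mt-Cytb and mt-Co2. For mt-Nd1, of complex I, the values were 2294, 1964 and 2051 in basal cells and 562, 617 and 588 in granular cells. For mt-Cytb, the mitochondrial subunit of complex III, they were 4291, 3706 and 3725, and then 1397, 1328 and 1266. For mt-Co2, which takes electrons from cytochrome c, they were 7198, 6773 and 6739.6, and then 2556, 2586 and 2741. The call for mt-Co2 was lost in cells up to 5% mt- UMIs (adjusted p = 0.245) and without replicate 1 (0.128) or replicate 2 (0.0782). mt-Co1, the catalytic core of complex IV, held 8801, 9977 and 8224 in basal cells and 5626, 5543 and 5796 in granular cells. It was higher by TMM (0.44 ± 0.10 SE, adjusted p = 0.000554) and lower by plain totals (-0.67), and stood at -0.00302 in thinned cells. The same held for mt-Nd5, which held 850.4, 845 and 791 in basal cells and 457, 461 and 443 in granular cells, with 0.24 ± 0.08 (SE, adjusted p = 0.011) by TMM and -0.87 by plain totals. The call for mt-Nd5 by TMM was lost with no low-count filter (adjusted p = 0.114), without replicate 3 (0.115) and without cycling cells (0.209), and the difference was -0.0896 in thinned cells. The genes mt-Atp6, mt-Co3, mt-Nd4 and mt-Nd6 were not called on the TMM scale. mt-Atp6 and mt-Nd4, which are known to share a message with mt-Atp8 and mt-Nd4l, stood at 0.14 and 0.08. mt-Nd6, the only member on the other strand of the mitochondrial genome, held at most 25.5 CPM in any profile. The genes mt-Atp8 and mt-Atp6, and mt-Nd4l and mt-Nd4, overlap on the same strand, so reads in the shared bases cannot be told apart. Among nuclear members, Cox4i1 and Ndufb9 overlap annotated genes on the same strand (Gm20388 and Gm49356), and Ndufa4l2, Uqcrc2 and Ndufaf2 overlap genes on the opposite strand (Shmt2, Pdzd9 and Smim15). Their values hold the same uncertainty, as do those of members with near-identical copies elsewhere in the genome, since the handling of such reads is not stated.

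**Figure D4:**
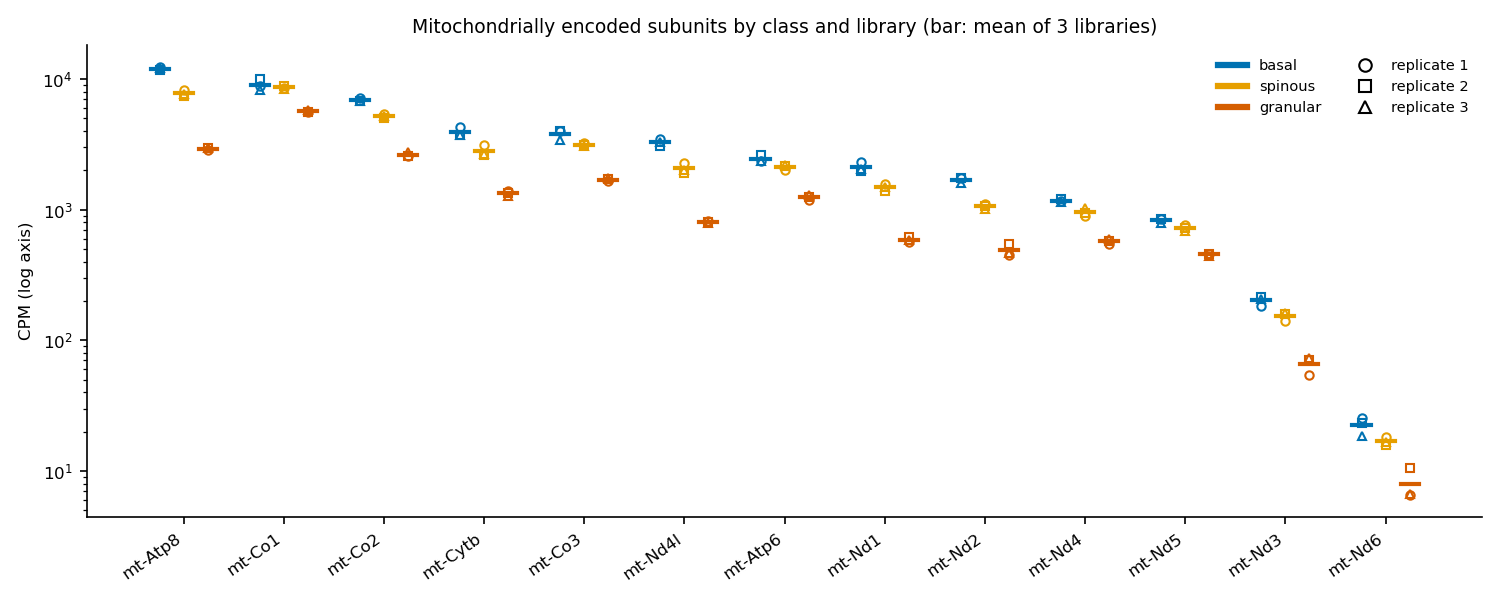
CPM (log axis) of the 13 mt- genes in basal, spinous and granular cells, with a symbol per library and a bar for the mean of 3 libraries. In each gene the granular values lie below the basal values, by the smallest step in mt-Co1 and by a larger one in mt-Atp8 and mt-Nd4l.

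The ratio of summed mitochondrial to summed nuclear genes was lower in granular cells, but not that of every mt- gene. The mt- genes held 1.67 to 1.91 UMIs for each UMI of a nuclear subunit in basal cells, 1.75 to 1.81 in spinous cells and 1.51 to 1.61 in granular cells. Within complex I the ratio went from 1.10 to 1.19 in basal cells to 0.839 to 0.881 in granular cells, within complex III from 1.23 to 1.44 to 0.929 to 1.04, and within complex V from 1.56 to 1.71 to 1.12 to 1.20. Basal and granular values overlapped within complex IV only, with 2.86 to 3.48 and 2.78 to 3.12. The mitochondrial sum of complex V includes mt-Atp8. In basal cells mt-Atp6 alone held 13463, 18557 and 20361 UMIs, against 51912, 58728 and 79741 of nuclear complex V. In granular cells it held 1981, 3590 and 5242, against 6072, 10467 and 14300, so its ratio was higher there in every library. Ndufa4 was left out of the nuclear subunits in all these ratios, which matters most within complex IV. For each UMI of the other nuclear complex IV subunits, Ndufa4 held 0.0666 to 0.0867 in basal cells and 1.01 to 1.11 in granular cells. Counting it would therefore lower the granular ratio of complex IV far more than the basal ratio, so the overlap holds only without Ndufa4.

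The nuclear members' transcripts also differed by length, which the rule did not use. Over the 85 nuclear members with an annotated transcript, Spearman's rho between the length of the transcript with the longest coding part and the TMM log2 difference between granular and basal cells was -0.40. Over 10924 genes it was 0.05. Genes are not independent replicates, and this measure was chosen after values were seen. Of the 47 members with a transcript of at most 1000 bases, 16 were higher and 23 lower, with a median of -0.15. Of the 38 longer ones, 4 were higher and 27 lower, with a median of -0.78. The longer ones include all 4 subunits of complex II and every Ndufaf factor but Ndufaf2 and Ndufaf8. All of these longer genes were lower, so length cannot be told apart from complex and role here. All genes tested gave 34.4% higher and 48.5% lower up to 1000 bases, and 37.2% and 45.4% above. Short cDNA fragments were kept in making these libraries, per the labels' protocols, and the part of this step was not tested.

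**Figure D5:**
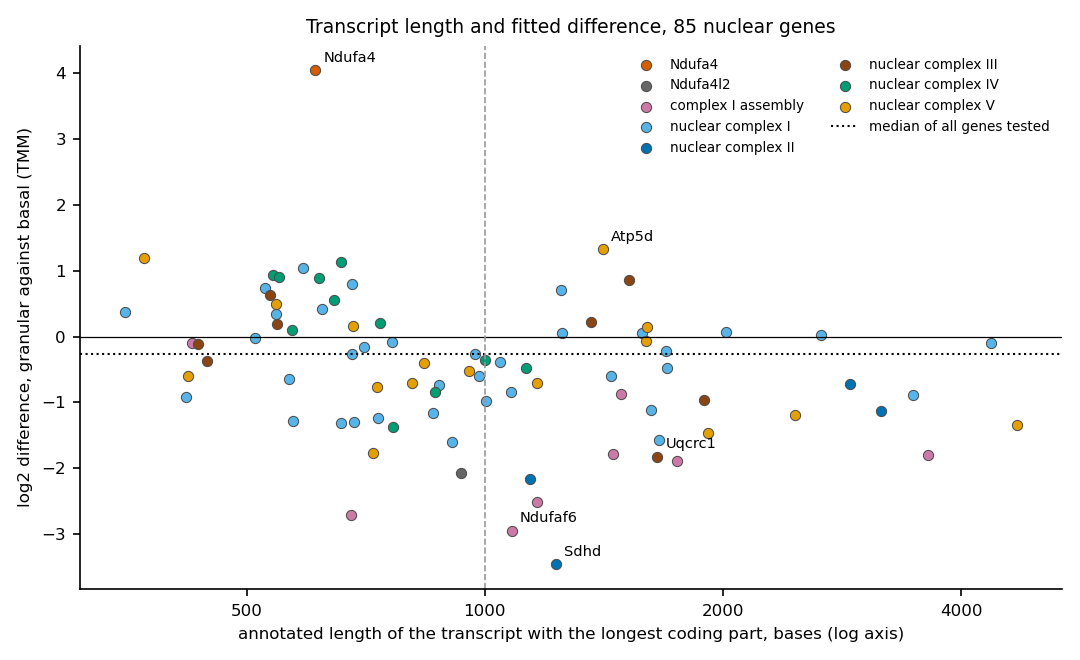
Log2 difference between granular and basal cells on the TMM scale (y axis) against the annotated transcript length in bases (log x axis) for 85 nuclear members, coloured by complex; the dashed line marks 1000 bases and the dotted line the median of all genes tested. Most points above 0 lie left of 1000 bases, with Atp5d among those to the right.

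Promoters are shown for 3 members that moved differently, to set their sequence beside their values. The sequences are from RefSeq (GRCm38.p6) and cover the part of the 250 bases before the gene's start that lies outside annotated exons, read 5′ to 3′ on the gene's strand. Capitals mark matches to the core of the motif bound by NRF1, a regulator of many respiratory genes, which is GCGCA, any base and GCGC, searched on both strands. Ndufa4 rose most, Ndufaf4 (a complex I assembly factor) fell on both scales, and Ndufs5 (a supernumerary subunit) was higher by TMM and lower by plain totals. They lie at chr6:11907498-11907700 (minus strand), chr4:24897833-24898082 (plus strand) and chr4:123718203-123718436 (minus strand).
Ndufa4: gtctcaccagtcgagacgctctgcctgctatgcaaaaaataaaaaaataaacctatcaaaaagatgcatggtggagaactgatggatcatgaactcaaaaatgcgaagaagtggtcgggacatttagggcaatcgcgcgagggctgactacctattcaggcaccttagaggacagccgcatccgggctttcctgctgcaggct
Ndufaf4: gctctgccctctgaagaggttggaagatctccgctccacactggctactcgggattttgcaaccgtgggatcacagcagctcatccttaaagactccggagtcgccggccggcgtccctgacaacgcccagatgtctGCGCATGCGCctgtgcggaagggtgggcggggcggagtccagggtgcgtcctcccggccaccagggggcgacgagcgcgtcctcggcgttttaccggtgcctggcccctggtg
Ndufs5: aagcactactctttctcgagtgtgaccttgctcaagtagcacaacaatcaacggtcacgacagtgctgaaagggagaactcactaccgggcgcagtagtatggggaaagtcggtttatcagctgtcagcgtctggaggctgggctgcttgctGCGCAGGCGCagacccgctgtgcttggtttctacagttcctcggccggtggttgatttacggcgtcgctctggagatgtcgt

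The match of Ndufaf4 starts 113 bases before the gene's start and that of Ndufs5 98 bases before it, and these letters are not in the window of Ndufa4. Ndufaf4 held 35.1, 29.4 and 34.1 CPM in basal cells and 5.94, 2.45 and 4.93 in granular cells, a TMM log2 difference of -1.79 ± 0.21 (SE, adjusted p = 9.57e-08). Ndufs5 held 203, 159 and 183 and then 154, 149 and 134, with 0.80 ± 0.09 (SE, adjusted p = 4.27e-08) by TMM and -0.32 by plain totals. Of 92 nuclear symbols, 74 had a promoter in the table. The NRF1 core was in 14 of the 74 (18.9%) and in 4.23% of 27025 promoters. CCGGAAGT, bound by ETS factors such as GABPA, was in 3 members (4.05%, all promoters 3.23%), and AAGATGGC, bound by YY1, was in 1 (1.35%, all promoters 1.83%). Among members tested, the median TMM log2 difference between granular and basal cells was -0.49 for the 14 with the NRF1 letters and -0.44 for the 56 without. A match is a description of the letters and not of binding.

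Other genes of mitochondrial respiration were counted from lists that do not overlap the members, to be read against 37.3% higher and 45.0% lower over all genes tested by TMM and 22.4% and 67.2% by plain totals. Apart from Cs, the genes named from these lists were picked by the size of their fitted difference. They fell much further than the median of their list and do not stand for it. Of 17 regulators of mitochondrial gene expression tested, 3 were higher and 8 lower in granular than in basal cells on the TMM scale (1 and 14 by plain totals), with a median of -0.50. Ppargc1b, a coactivator of mitochondrial genes, held 13.8, 10.8 and 18.6 CPM in basal cells and 0, 0.350 and 0.246 in granular cells (TMM log2 difference -4.80, adjusted p = 1.28e-07), from 0, 1 and 1 UMIs. Of 35 assembly factors outside the Ndufaf group, 6 were higher and 20 lower (2 and 31 by plain totals), with a median of -0.73. Sdhaf4, an assembly factor of complex II, held 48.3, 38.3 and 40.8 in basal cells and 0.594, 0.701 and 1.72 in granular cells (-4.02, adjusted p = 1.22e-11).

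Of 14 carriers and partners of the chain, 3 were higher and 10 lower (0 and 14 by plain totals), with a median of -0.58. Slc25a4, an ADP/ATP carrier, held 172, 123 and 144 in basal cells and 1.78, 2.80 and 4.68 in granular cells (-4.22, adjusted p = 1.54e-14). The list also holds Slc25a5, so these values do not describe all such carriers. Of 16 genes of the tricarboxylic acid cycle and pyruvate dehydrogenase, 3 were higher and 12 lower (3 and 13 by plain totals), with a median of -1.10. Dlat, a subunit of pyruvate dehydrogenase, held 31.9, 30.3 and 32.7 in basal cells and 0.594, 2.10 and 1.23 in granular cells (-3.37, adjusted p = 4.18e-10). Idh3a, of the NAD-linked isocitrate dehydrogenase, went from 102, 78.0 and 102 to 5.94, 5.60 and 5.91 (-2.87, adjusted p = 3.47e-13). Cs, citrate synthase, was chosen after its values were seen and was higher on both scales, with 73.3, 78.0 and 88.8 in basal cells and 114, 132 and 123 in granular cells (1.74 by TMM, adjusted p = 5.07e-14).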

How the data were processed

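Each replicate has 1 deposited matrix of raw UMI counts by gene and barcode. Per the submitters' processing notes it was made by Cell Ranger 3.1.0 on build mm10, the version that the file headers also name. The annotation version, the use of strand and the handling of reads that match several genes are not given in the sources used here. Coordinates come from GENCODE M21.

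Replicates 1 to 3 held 15926683, 24480473 and 28176712 UMIs. Kept cells had 500 genes or more and an mt- share up to 10%, and Scrublet marks were left in (an alternative removed them). Counts were summed per library and class into 9 profiles. One edgeR fit (edgeR 4.0.16, R 4.3.3) held all profiles, with the package's low-count filter, TMM scaling, library as a block and a quasi-likelihood test. P-values were adjusted over 11314 genes and called at 0.05. Krt5, Krt14, Krt1, Krt10 and Lor, which define the classes, were left out of the genes tested. Complex sums are values without a test. The fit was also run on simulated data in which few genes changed between classes, so that run does not bear on the choice of scale.

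Every library gives all classes, so the block pairs profiles by construction. Deviations of same-library profiles correlated across genes at r from 0.246 to 0.307 for spinous with basal cells, 0.125 to 0.197 for granular with spinous cells and 0.104 to 0.122 for granular with basal cells. Values per library are printed for Ndufa4 and its paralogs, the 4 largest called rises and falls per comparison, mt- genes, isoform sets and the highest members per complex, and for up to 3 called genes per related list. Ndufs5, Ndufaf4, Uqcrc2 and Sdha were added after their values were seen, as was the use of transcript length. Members, lists and rules were chosen with earlier results of these data known. Alternatives were 16 planned settings and 2 added after seeing the data: leaving out cells with RNA of other cell types, and TMM scaling of the complex sums. DESeq2 1.42.0 was one of the planned ones. UMIs collapse amplification copies, and depth limits members with few UMIs in granular cells.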

Additional observations from a re-analysis of the deposited data

How the results depend on the processing

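The scaling decided most counts of members. Scaled to total UMIs, 6 members were higher and 81 lower in spinous than in basal cells, 2 and 90 in granular against spinous cells and 2 and 93 in granular against basal cells. Scaled to total UMIs less the 5 genes that define the classes, these counts were 6 and 81, 2 and 90, and 2 and 90. With each cell thinned to 2000 UMIs, 10, 7 and 10 members were higher. Other settings kept each count within 1.5 times its value. DESeq2 called 12 higher and 48 lower, 23 and 47, and 22 and 57. Without the replicate block, which paired the profiles by library, the counts were 15 and 34, 16 and 52, and 21 and 57. Leaving out 1 replicate gave 14 to 16 higher and 33 to 37 lower, 14 to 17 and 48 to 53, and 20 to 22 and 55. Ndufa4 was called higher in each comparison under each setting, by 0.53 to 1.07, 2.39 to 3.34 and 2.93 to 4.25 on the log2 scale.

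Between granular and basal cells, 7 named members changed sign when scaled to total UMIs and when scaled to that total less the class genes. These log2 differences were -0.32 and -0.25 for Ndufs5, -1.02 and -0.95 for Cox6a1, -0.21 and -0.14 for Cox6b1, -0.0725 and -0.00262 for Ndufa6, -0.20 and -0.13 for Cox8a, -0.67 and -0.60 for mt-Co1, and -0.87 and -0.80 for mt-Nd5. Thinned cells gave -0.17 for Cox6a1, -0.00302 for mt-Co1 and -0.0896 for mt-Nd5, and Cox6a1 stood at -0.0396 without replicate 2. Of the values of single named members over all settings, 796 kept their call and direction, 16 lost the call, 1 gained it and 18 changed sign. By edgeR, the call for mt-Co2 was lost without replicate 1 (adjusted p = 0.128), without replicate 2 (0.0782) and in cells up to 5% mt- UMIs (0.245), that for mt-Nd5 without replicate 3, without cycling cells and with no low-count filter, and 2 of the calls for Ndufaf5 in thinned cells. The causes were not tested.

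Summed CPM kept their direction in all settings but TMM scaling, an alternative added after seeing the data. The log2 ratios of the sums then turned positive for complex III (0.0896 for granular against spinous and 0.0107 for granular against basal cells), for complex IV (0.0464, 0.20 and 0.24 in the 3 comparisons) and for all nuclear subunits between granular and spinous cells (0.0176). For all nuclear subunits between spinous and basal cells the ratio was -0.40 as reported, -0.46 in cells up to 5% mt- UMIs, -0.44 under stricter class thresholds, -0.34 without cycling cells and -0.0637 under TMM. Between granular and spinous cells it was -0.76, and -0.69 less the class genes and -0.82 under stricter thresholds. Between granular and basal cells it was -1.16, and -1.26 under stricter thresholds and -0.0461 under TMM. For the mt- genes between spinous and basal cells it was -0.39, and -0.27 up to 5% mt- UMIs, -0.45 without cycling cells, -0.34 in thinned cells and -0.0606 under TMM. Between granular and spinous cells it was -0.97, and -0.89 less the class genes, -0.87 up to 5% mt- UMIs and -0.19 under TMM, and between granular and basal cells -1.36, -1.14 up to 5% mt- UMIs and -0.25 under TMM.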

Other observations

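Ratios within pairs of neighbouring mitochondrial genes, which do not depend on scaling, also differed between classes. mt-Atp8 held 5.26, 4.42 and 5.11 UMIs for each UMI of mt-Atp6 in basal cells of replicates 1 to 3, 4.11, 3.44 and 3.45 in spinous cells, and 2.44, 2.37 and 2.27 in granular cells. mt-Nd4l held 2.99, 2.53 and 2.88 for each UMI of mt-Nd4 in basal cells and 1.49, 1.41 and 1.32 in granular cells. Granular values lay below all basal values in both pairs. The genes of each pair overlap and are known to share a message, so how reads in and near the shared bases were assigned bears on the ratio. The kit counts 5′ ends, so where reads fall along the shared message bears on it too. Neither was tested.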
